A study of Homo sapiens with 6 samples.

Results

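The 9 genes described here encode the vascular endothelial growth factor (VEGF) ligands VEGFA, VEGFB, VEGFC and PGF, the receptors FLT1, KDR and FLT4, and the co-receptors NRP1 and NRP2. They were chosen by name, with earlier results of these data known, and are 9 of the 18544 genes listed in the deposited count table. Each had 1 row, and all 9 passed the filter on low counts. RNA was sequenced from HMEC-1, a human dermal microvascular endothelial line immortalised with a viral large T antigen, grown in MCDB131 medium at 5.5 mM glucose. All libraries came from this single line and all cells carried a lentiviral shRNA construct. In the Set7KD libraries (n = 3) the shRNA was directed against SETD7, a lysine methyltransferase also written Set7, and in the NTC libraries (n = 3) it was a non-targeting control. The sources used here do not state how many hairpins were used, and the knockdown and any other effect of the shRNA cannot be told apart. The comparison asks how the RNA of the VEGF system differs when SETD7 is knocked down.

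VEGF ligands are secreted dimers that bind receptor tyrosine kinases on endothelial cells. VEGFA binds FLT1 (VEGFR1) and KDR (VEGFR2), and KDR carries most of its mitogenic and permeability signal, while FLT1 binds it tightly with weak kinase activity and also exists as a soluble trap. VEGFB and PGF bind FLT1, and VEGFC binds FLT4 (VEGFR3), the receptor best known from lymphatic vessels, and after proteolytic maturation also KDR. Neuropilins have no kinase domain of their own; NRP1 presents VEGFA to KDR, NRP2 takes part in VEGFC signalling, and both are also receptors for class 3 semaphorins.

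Total gene counts per library ran from 16385878 to 16953331, and 1 count was worth 0.0585 to 0.0618 CPM (gene counts scaled to a common library size after TMM normalization), the unit of level used below. SETD7 had 27.77, 43.82 and 26.7 CPM in the Set7KD libraries, against 180.5, 178.4 and 176.1 CPM in the NTC libraries, a log2 fold change of -2.44 (SE 0.21, edgeR adjusted p 0.000927). Of 18482 genes tested with edgeR, 36.2% had an adjusted p under 0.05, called below; 17.6% were higher and 18.6% lower in Set7KD, and 47.4% had CPM ranges without overlap. Of 15 endothelial markers, 13 had a row. Their summed level was 673.8 to 714.5 CPM in Set7KD and 727.2 to 907.4 CPM in NTC. By edgeR 2 were higher (TEK and ENG), 4 lower (CDH5, TIE1, ROBO4 and EGFL7) and 7 not called (46.2% called, against 36.2% of all genes). VWF was among those not called, at 10.1 ± 0.645 CPM in Set7KD and 9.7 ± 2.25 CPM in NTC (SD, n = 3). PECAM1 and CLDN5 had no row under those symbols. Marker genes of other cell types also differed. The 7 of 10 fibroblast markers with a row summed to 3172 to 4141 CPM in Set7KD and 1465 to 2015 CPM in NTC, and the 11 of 12 smooth muscle and pericyte markers to 779 to 1085 CPM in Set7KD and 390.7 to 440.6 CPM in NTC. In the first sum COL1A1 alone had 2861 and 1555 CPM as group means, and in the second TAGLN alone had 551 and 96.3 CPM. By edgeR 5 of the 7 fibroblast markers were higher and 2 not called (71.4% called). Of the 11 others, 5 were higher and 6 not called (45.5% called, against 36.2% of all genes). DCN, DPT and TCF21 of the first and DES of the second list had no row. Of 7 leukocyte markers, only CD14 and CD68 had a row, summing to 21.51 to 28.23 CPM in Set7KD and 36.1 to 38.66 CPM in NTC, and of 7 keratinocyte markers only KRT10, at 23.05 to 24.91 CPM in Set7KD and 16.2 to 16.74 CPM in NTC. The part of these differences in the results below was not tested, and in bulk RNA fewer cells of a type and less RNA per cell cannot be told apart.

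Promoter sequences of 6 of the 9 genes were found in RefSeq (build GRCh38.p14), each running from 250 bases before to 50 bases after the annotated start. Those of FLT1 and KDR are shown because these receptors rose together, and that of VEGFB because it had the smallest p among the genes that fell. FLT1 lies at chr13:28495079-28495378 (minus strand), KDR at chr4:55125546-55125845 (minus strand) and VEGFB at chr11:64234334-64234633 (plus strand). Capitals mark matches of 3 motifs on either strand, with overlapping matches all counted. The GC box, bound by SP family factors, was searched as GGGCGG. The TATA box, which positions the start of transcription, was searched as TATAAA. The core of the site bound by hypoxia-inducible factors (HIF core) was searched as ACGTG, and also with its first base replaced, as GCGTG.
FLT1: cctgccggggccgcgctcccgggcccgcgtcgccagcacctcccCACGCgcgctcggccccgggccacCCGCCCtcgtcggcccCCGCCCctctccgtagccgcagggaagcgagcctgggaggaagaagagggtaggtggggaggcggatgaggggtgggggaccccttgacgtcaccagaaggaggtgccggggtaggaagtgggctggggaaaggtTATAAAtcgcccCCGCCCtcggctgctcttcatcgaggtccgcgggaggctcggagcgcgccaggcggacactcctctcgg
KDR: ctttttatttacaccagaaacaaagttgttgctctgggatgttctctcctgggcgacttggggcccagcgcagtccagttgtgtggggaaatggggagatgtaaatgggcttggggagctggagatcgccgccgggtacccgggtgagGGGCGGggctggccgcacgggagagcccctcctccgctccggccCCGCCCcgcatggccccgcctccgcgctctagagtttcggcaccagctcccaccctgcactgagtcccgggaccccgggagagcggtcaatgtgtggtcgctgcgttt
VEGFB: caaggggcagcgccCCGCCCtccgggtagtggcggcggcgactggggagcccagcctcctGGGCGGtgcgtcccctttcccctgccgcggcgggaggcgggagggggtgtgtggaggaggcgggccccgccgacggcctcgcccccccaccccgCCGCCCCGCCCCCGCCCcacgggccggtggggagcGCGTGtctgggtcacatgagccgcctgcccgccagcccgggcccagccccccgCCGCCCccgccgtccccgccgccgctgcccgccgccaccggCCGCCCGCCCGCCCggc

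The FLT1 promoter held 3 GC boxes, 1 TATA box and 1 HIF core, the KDR promoter 2 GC boxes and neither of the others, and the VEGFB promoter 9 GC boxes and 1 HIF core. VEGFC and PGF had 2 GC boxes and 1 HIF core each, and NRP2 had 3 GC boxes. Among 35116 promoters of the same length, a GC box was present in 45%, a TATA box in 11.5% and a HIF core in 48.4%. 4 other motifs had no match in any of these 6 windows. The AP-1 motif, searched as TGANTCA, occurred in 7.71% of all promoters. The motif of ETS factors, searched as CCGGAA, occurred in 17.2% of all promoters. The CCAAT box was present in 34.6%, and the motif of GATA factors, searched as AGATAA, in 10.3%. GC made up 73.3% of the FLT1 window, 65% of the KDR window and 84.7% of the VEGFB window, against a median of 58.7% over all promoters. The TATA box and the HIF core were thus present in the window of FLT1 and not in that of KDR.

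Of the 9 genes, 4 rose and 3 fell in Set7KD, and 2 were not called. FLT1, KDR, NRP1 and NRP2 rose, VEGFB, PGF and FLT4 fell, and VEGFA and VEGFC did not pass. The share called was 77.8% of the 9, against 36.2% of all genes tested, and 6 of them had CPM ranges without overlap, against 47.4% of all genes. The 9 were chosen with earlier results of these data known. All genes tested also include genes that averaged under 5 CPM, which none of the 9 did. The shares are therefore a description and not a like comparison. The median log2 fold change was 0.25 over the 9 genes and -0.0086 over all genes. With the replicate number as a block, 5 rose and 2 fell, because VEGFC was then called (adjusted p 0.0412) and PGF was not (adjusted p 0.0871). Over all genes, 42.8% were called with that block.

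**Figure D1:**
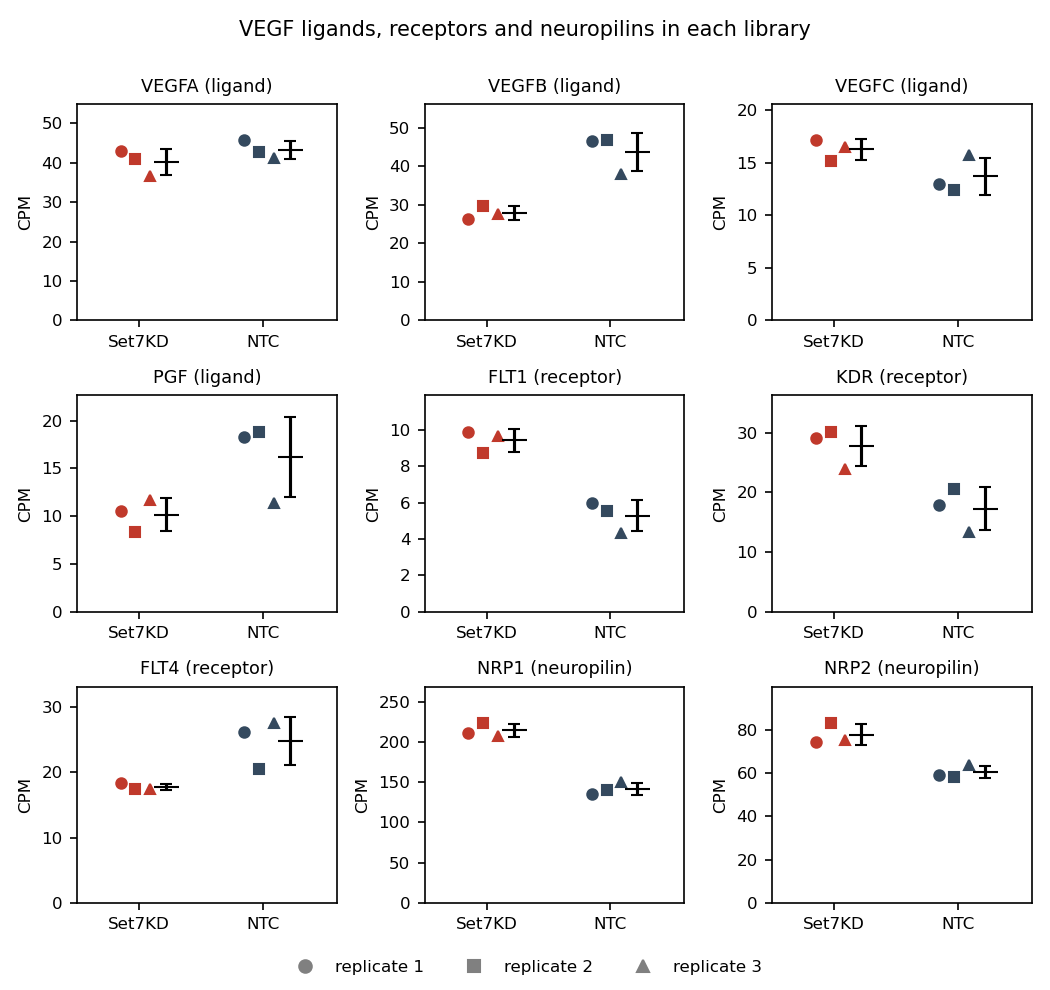
CPM of each gene (vertical axes, from 0) in the 3 Set7KD and 3 NTC libraries, 1 marker shape per replicate number, with mean and SD as bars. The groups are apart for VEGFB, FLT1, KDR, FLT4, NRP1 and NRP2 and overlap for VEGFA, VEGFC and PGF.

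Among the ligands, VEGFA, the main angiogenic factor of the family, had 42.9, 40.86 and 36.56 CPM in the Set7KD libraries, against 45.67, 42.75 and 41.25 CPM in the NTC libraries. The groups overlapped. The log2 fold change was -0.11 (95% interval -0.27 to 0.05, edgeR adjusted p 0.276), so that differences between a fold of 0.832 and 1.03 lay within the interval.

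VEGFB, an FLT1 ligand best known from heart and muscle, fell. Its level was 26.2, 29.73 and 27.5 CPM in the Set7KD libraries, against 46.49, 46.73 and 37.97 CPM in the NTC libraries. Every Set7KD library lay below every NTC library, and NTC replicate 3 was the lowest of its group. The log2 fold change was -0.65 (SE 0.09, edgeR adjusted p 3.95e-05), a fold of 0.636, and the call held in all 16 alternatives.

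PGF, placental growth factor, the other FLT1 ligand, had 10.53, 8.282 and 11.64 CPM in the Set7KD libraries, against 18.3, 18.85 and 11.35 CPM in the NTC libraries. The groups overlapped because NTC replicate 3 lay within the range of Set7KD. The log2 fold change was -0.67 (SE 0.21) and passed with an edgeR adjusted p of 0.0388. Without NTC replicate 3 it was -0.87 (adjusted p 0.00012), whereas without any other single library it lay between -0.77 and -0.54 and the call was lost, at adjusted p of 0.0544 to 0.121. It was also lost with limma-voom (adjusted p 0.0712).

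VEGFC, the principal lymphangiogenic factor, had 17.12, 15.2 and 16.48 CPM in the Set7KD libraries, against 12.98, 12.4 and 15.68 CPM in the NTC libraries. Only NTC replicate 3 reached into the range of Set7KD. The log2 fold change was 0.25 (95% interval 0.02 to 0.48, edgeR adjusted p 0.0807) and did not pass. Without NTC replicate 3 it was 0.36 (adjusted p 0.0179). The fifth ligand of the family, VEGFD, had no row under that name or the older symbol FIGF.

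Both receptors of VEGFA rose. FLT1 had 9.922, 8.715 and 9.677 CPM in the Set7KD libraries, against 5.965, 5.54 and 4.33 CPM in the NTC libraries. All Set7KD libraries were above all NTC libraries, and the log2 fold change of 0.84 (SE 0.14, edgeR adjusted p 0.000222), a fold of 1.79, was the largest rise among the 9 genes. Counts per gene do not separate the membrane and soluble forms of FLT1.

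KDR, the main signalling receptor, had 29.16, 30.22 and 23.89 CPM in the Set7KD libraries, against 17.89, 20.59 and 13.4 CPM in the NTC libraries. Replicate 3 was the lowest library in both groups, and the groups did not overlap. The log2 fold change was 0.68 (SE 0.15, edgeR adjusted p 0.00582), a fold of 1.61. Without replicate 1 in both groups it was 0.67 and no longer passed (adjusted p 0.0859).

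FLT4 moved in the other direction from FLT1 and KDR. Its level was 18.33, 17.49 and 17.52 CPM in the Set7KD libraries, against 26.14, 20.59 and 27.62 CPM in the NTC libraries. The Set7KD libraries lay close together and below all NTC libraries, of which replicate 2 was the lowest. The log2 fold change was -0.48 (SE 0.10, edgeR adjusted p 0.00203), a fold of 0.717, and without replicate 1 in both groups it was -0.46 (adjusted p 0.0537). Of 7 lymphatic endothelial markers, FLT4 itself and PDPN were the only ones with a row. PDPN, a membrane mucin, had 62.9 CPM in Set7KD and 80.1 CPM in NTC as group means, and PROX1 and LYVE1 had no row.

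Both neuropilins rose. NRP1 had 211.8, 224.2 and 208.1 CPM in the Set7KD libraries, against 135.4, 140.5 and 150.3 CPM in the NTC libraries. The groups were far apart, and the log2 fold change of 0.60 (SE 0.06, edgeR adjusted p 1.45e-06), a fold of 1.51, had the smallest p of the 9 genes. NRP2 had 74.54, 83.26 and 75.27 CPM in the Set7KD libraries, against 59.24, 58.35 and 63.78 CPM in the NTC libraries. Its log2 fold change was 0.36 (SE 0.06, edgeR adjusted p 0.000406), a fold of 1.28 without overlap of the groups. Both calls held in all 16 alternatives. Annotated exons of NRP1 share 561 bases with an antisense transcript, RP11-342D11.2, whose row had 18.3 ± 0.86 CPM in Set7KD and 12.2 ± 0.82 CPM in NTC (SD, n = 3). Since it is not stated that the counting used strand, reads of that row and of NRP1 cannot be told apart there. The antisense row beside NRP2, AC007362.3, shares 147 bases and stood at 1.71 ± 0.32 CPM in Set7KD and 1.75 ± 0.52 CPM in NTC.

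**Figure D2:**
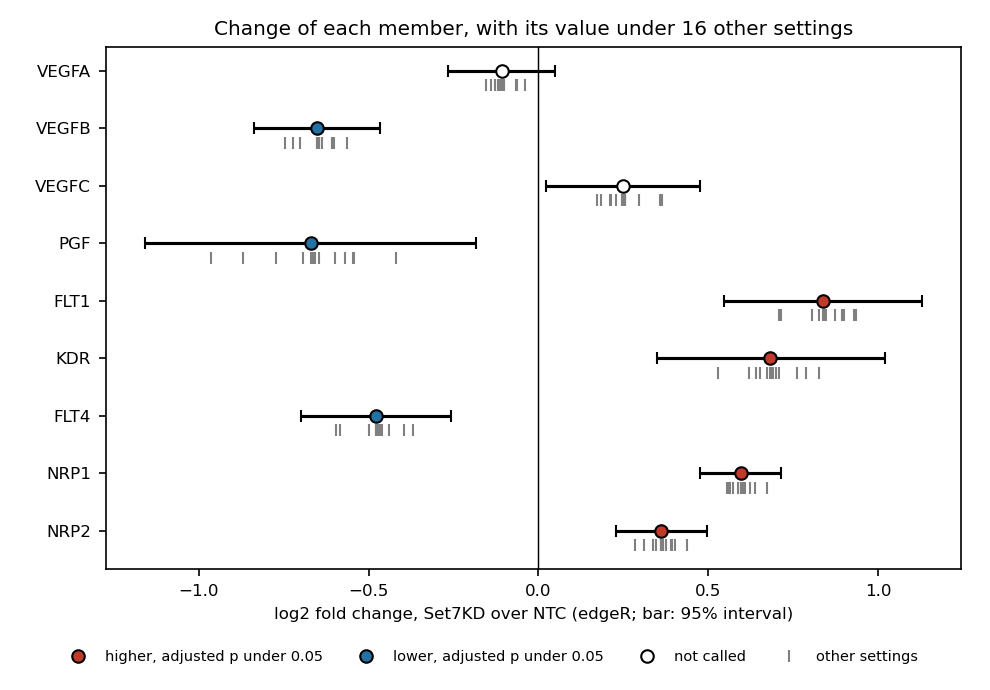
Log2 fold change of each gene, Set7KD over NTC (horizontal axis), with its 95% interval from the edgeR fit; grey ticks give the value under each of the 16 other settings. FLT1, KDR, NRP1 and NRP2 lie to the right of 0, VEGFB, PGF and FLT4 to the left, and all ticks of a gene lie on the same side as its point.

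Levels of different genes were compared as CPM per kilobase of annotated exon. In Set7KD the order from high to low was NRP1 with 18.6 ± 0.73, VEGFB with 18 ± 1.16, VEGFC with 6.72 ± 0.40, NRP2 with 5.59 ± 0.35, KDR with 4.23 ± 0.52, VEGFA with 2.78 ± 0.22, FLT4 with 2.01 ± 0.05, PGF with 1.7 ± 0.29 and FLT1 with 0.751 ± 0.05 CPM per kilobase (SD, n = 3). Only NRP1 and VEGFB overlapped as neighbours in that order. In NTC, VEGFB led with 28.3 ± 3.23 CPM per kilobase, above NRP1 with 12.3 ± 0.65, VEGFC with 5.66 ± 0.72 and NRP2 with 4.35 ± 0.21. VEGFA with 3 ± 0.16, FLT4 with 2.8 ± 0.42, PGF with 2.71 ± 0.70 and KDR with 2.64 ± 0.55 CPM per kilobase followed and overlapped from neighbour to neighbour, and FLT1 was again lowest with 0.42 ± 0.07. By this measure KDR stood apart from VEGFA, FLT4 and PGF in Set7KD and not in NTC. The place of VEGFA rests on dividing it by 14.43 kilobases of annotated exon. Its longest transcript, at 12.17 kilobases, gives no separate check. Before division by length, VEGFA had a mean of 40.11 CPM and KDR 27.76 CPM in Set7KD, against 43.22 and 17.3 CPM in NTC. With the length of the longest transcript in place of all annotated exons, NRP1 was clear of VEGFB in Set7KD, with 36.5 ± 1.44 against 20.2 ± 1.29 CPM per kilobase, and NRP2 stood above VEGFC in both groups. The lower part of the order also depended on the length. In Set7KD, VEGFA then overlapped FLT4, and FLT4 overlapped PGF. In NTC, PGF with 4.56 ± 1.18 and FLT4 with 4.23 ± 0.63 then had higher means than VEGFA with 3.55 ± 0.18 CPM per kilobase, overlapping from neighbour to neighbour.

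Within the receptors, KDR made up 60.8, 63.3 and 57% of the summed level per kilobase in the Set7KD libraries, against 44.3, 53.1 and 37.1% in the NTC libraries. FLT4 made up 28.4, 27.2 and 31% in the Set7KD libraries and 48, 39.4 and 56.7% in the NTC libraries. The groups did not overlap in either share, and the larger spread lay in NTC. Within the ligands, VEGFB made up 58.9, 64.7 and 61.2% in the Set7KD libraries and 72.2, 72.9 and 68.6% in the NTC libraries. VEGFC made up 24.6, 21.1 and 23.4% in the Set7KD libraries and 12.9, 12.4 and 18.1% in the NTC libraries. VEGFA made up 8.71 to 10.3% in Set7KD and 7.14 to 7.98% in NTC. That share rests on dividing VEGFA by 14.43 kilobases of annotated exon and VEGFB by 1.545. Before division by length, VEGFA had a mean of 40.11 CPM and VEGFB 27.81 CPM in Set7KD, against 43.22 and 43.73 CPM in NTC. The longest transcript of VEGFA is also long, at 12.17 kilobases, so that length gives no separate check of its share. These shares depend on the length used: with the longest transcript KDR made up 51.1 ± 3.37% of the receptors in Set7KD and 36.4 ± 7.44% in NTC (SD, n = 3).

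**Figure D3:**
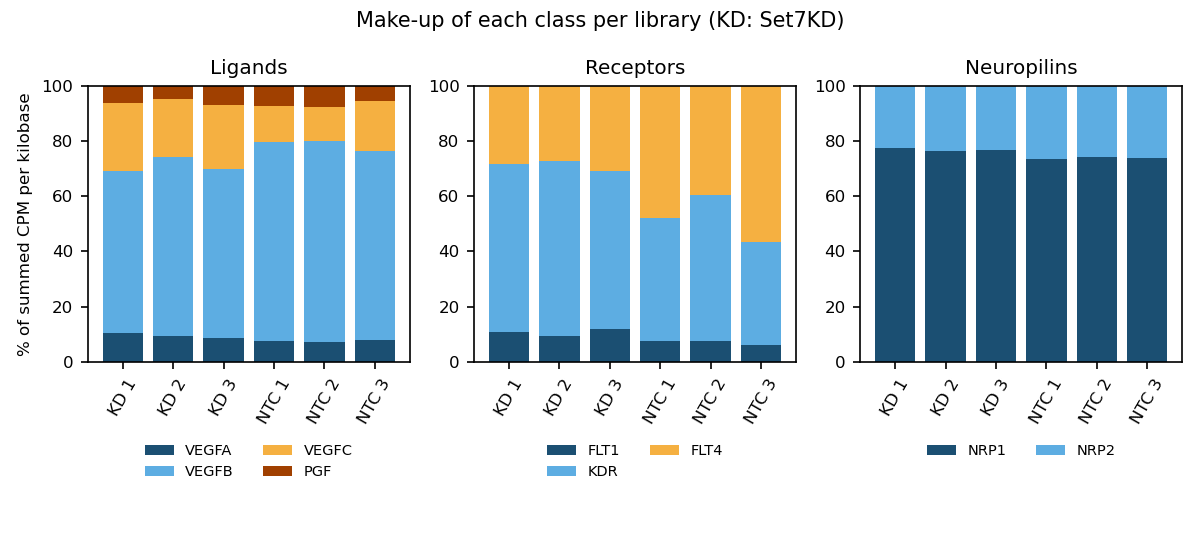
Percent of the summed CPM per kilobase that each gene made up within ligands, receptors and neuropilins (vertical axis), 1 bar per library, the Set7KD libraries (KD) left of NTC. KDR takes 57 to 63.3% of the receptor bar in Set7KD and 37.1 to 53.1% in NTC.

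Ratios of 2 genes within a library do not depend on the scaling of libraries. Of 10 such ratios, chosen after the values were seen, 7 did not overlap between the groups. The ratio of KDR to FLT4 was 1.59, 1.73 and 1.36 in the Set7KD libraries, against 0.685, 1 and 0.485 in the NTC libraries. The ratio of VEGFC to its receptor FLT4 was 0.934, 0.869 and 0.941 in the Set7KD libraries and 0.497, 0.602 and 0.568 in the NTC libraries. VEGFB to its receptor FLT1 gave 2.96 ± 0.40 in Set7KD and 8.33 ± 0.50 in NTC (SD, n = 3), and VEGFB to VEGFA gave 0.697 ± 0.08 and 1.01 ± 0.09 in the same order. NRP1 to NRP2 was 2.77 ± 0.07 in Set7KD and 2.35 ± 0.06 in NTC, so that NRP1 rose more than NRP2. Each of these had an exact two-sided permutation p of 0.1, the smallest that 3 libraries against 3 allow (0.143 after Benjamini-Hochberg adjustment over the 10 ratios). The ratios share genes and were built from genes whose changes were already known. Their p-values therefore only restate that separation and are not a further test. FLT1 to KDR overlapped, with 0.34, 0.288 and 0.405 in the Set7KD libraries and 0.333, 0.269 and 0.323 in the NTC libraries (exact permutation p 0.4, adjusted 0.4).

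**Figure D4:**
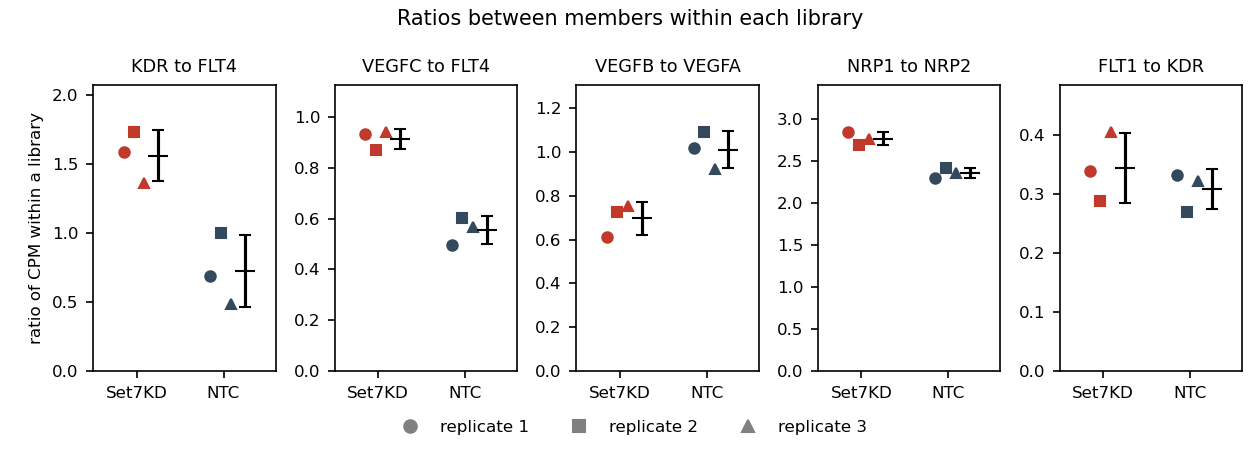
Ratio of the CPM of 2 genes within each library (vertical axes, from 0), Set7KD left of NTC, 1 marker shape per replicate number, with mean and SD as bars. KDR to FLT4 and VEGFC to FLT4 are higher, VEGFB to VEGFA lower and NRP1 to NRP2 higher in every Set7KD library, while FLT1 to KDR overlaps.

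The pathway around these genes was described from 6 lists of genes. Of 31 tested partners and trafficking factors of the receptors, 11 rose and 6 fell by edgeR (54.8% called, against 36.2% of all genes, median log2 fold change 0.10). EFNB2, an ephrin that drives VEGF receptor uptake, rose to 75.6 ± 5.22 CPM in Set7KD, against 38.7 ± 2.43 CPM in NTC. An antisense gene overlaps 1313 of its 5019 annotated exon bases. SDC2, a heparan sulphate proteoglycan, rose to 258 ± 23.7 CPM in Set7KD, against 104 ± 10 CPM in NTC (SD, n = 3). CAV1, the main protein of caveolae, rose with a log2 fold change of 0.79, and PTPN11, the phosphatase SHP2, fell with -0.60. Of the receptor-type phosphatases that act on KDR, PTPRB (VE-PTP) rose to 36.2 ± 1.07 CPM in Set7KD, against 24.4 ± 3.02 CPM in NTC, and PTPRJ fell to 92.4 ± 4.94 CPM, against 113 ± 11.2 CPM. CDH5, the endothelial cadherin that binds KDR at junctions, fell to 119 ± 11.4 CPM in Set7KD, against 206 ± 32.1 CPM in NTC.

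Of 13 semaphorins, plexins and other guidance partners with a tested row, 4 rose and 4 fell by edgeR. This was 61.5% called, against 36.2% of all genes, with a median log2 fold change of 0.15. Among the neuropilin ligands, SEMA3D rose to 71.2 ± 6.01 CPM in Set7KD, against 28.1 ± 1.78 CPM in NTC, and SEMA3C to 123 ± 0.97 CPM, against 67.5 ± 5.6 CPM. SEMA3B fell to 5.34 ± 0.46 CPM, against 12.8 ± 0.70 CPM in NTC, and SEMA3F, an NRP2 ligand, had a log2 fold change of -0.19 (edgeR adjusted p 0.0335), a call lost in 6 of the 16 alternatives, including DESeq2 and leaving out Set7KD replicate 1, Set7KD replicate 2 or NTC replicate 1 (adjusted p 0.0737 to 0.203). SEMA3A, the classical NRP1 ligand, was not called, with 57.4 ± 6.36 CPM in Set7KD and 55.7 ± 1.58 CPM in NTC. PLXNA4, a plexin that pairs with neuropilins, rose to 10.6 ± 3.28 CPM in Set7KD, from a low level of 1.44 ± 0.175 CPM in NTC. Its log2 fold change was 2.87 (SE 0.26). PLXND1 and PLXNA2 did not pass, with log2 fold changes of 0.22 and 0.56 (edgeR adjusted p 0.0588 and 0.053). Both were called higher in 6 of the 16 alternatives, among them RLE and upper-quartile scaling and DESeq2, and PLXND1 also with the replicate block (adjusted p 0.0204). UNC5B, a netrin receptor of endothelium, rose to 33.6 ± 5.24 CPM in Set7KD, against 18.6 ± 1.52 CPM in NTC, and its binding partner ROBO4 fell to 24.6 ± 1.94 CPM, against 39 ± 6.9 CPM. The count of higher genes in the list was 6 with RLE scaling, upper-quartile scaling, DESeq2 or the replicate block. Over all genes these settings called 3352, 3312, 2712 and 3826 higher, in the same order. Without Set7KD replicate 2 the count was 7, with 3214 higher over all genes.

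Of 56 kinases and adaptors downstream of the receptors, 14 rose and 9 fell by edgeR. This was 41.1%, near the 36.2% of all genes, and the median log2 fold change was 0.04. PLCG1, the phospholipase that KDR activates, had 179 ± 8.35 CPM in Set7KD and 184 ± 7.27 CPM in NTC and was not called. NRAS rose to 193 ± 3.12 CPM in Set7KD, against 134 ± 3.93 CPM in NTC, and the small GTPase gene CDC42 rose with a log2 fold change of 0.40, although most of its annotated exons overlap another locus. The protein kinase C genes PRKCA and PRKCD fell, with log2 fold changes of -0.43 and -0.62. PIK3R1, a regulatory subunit of PI3 kinase, rose to 70.6 ± 5.35 CPM in Set7KD, against 45.5 ± 5.25 CPM in NTC.

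Genes known to be induced by VEGFA in endothelial cells had the lowest median of the 6 lists, a log2 fold change of -0.88 over 33 genes, but 3 rose and 9 fell by edgeR, and 36.4% were called, against 36.2% of all genes. With the replicate block 21 fell and 3 rose, or 72.7% of the list, against 42.8% of all genes. RCAN1, a target of the calcineurin branch, rose to 112 ± 7.62 CPM in Set7KD, against 81 ± 4.46 CPM in NTC, and TFPI2, a protease inhibitor, rose with a log2 fold change of 1.01. DLL4, the Notch ligand of tip cells, fell to 0.968, 0.309 and 0.919 CPM in the Set7KD libraries, against 2.46, 4.15 and 2.75 CPM in the NTC libraries. These values rest on few counts. DLL4 was tested in 15 of the 16 alternatives, and the call held in those 15. The collagenase gene MMP1 fell with a log2 fold change of -1.02, and the tip cell gene ESM1 fell to 2.61 ± 0.99 CPM in Set7KD, against 4.8 ± 0.23 CPM in NTC. EGR1, an early transcription factor, had 238, 369 and 127 CPM in the Set7KD libraries, against 1015, 1216 and 452 CPM in the NTC libraries, and was not called by edgeR (log2 fold change -1.87, adjusted p 0.0808), except with the replicate block (adjusted p 5.1e-09), with DESeq2 (adjusted p 0.00418) and without replicate 3 in both groups (adjusted p 0.00343). Replicate 3 was the lowest library of both groups for EGR1, as it was for KDR. The count of lower genes in the list was 15 with DESeq2 and 14 without NTC replicate 3, with 2688 and 3303 lower over all genes. It was 5 without Set7KD replicate 1 or without NTC replicate 1, with 2545 and 2564 lower over all genes. Without replicate 3 in both groups it was 22, with 2782 lower over all genes. Without replicate 1 in both groups it was 3, with 1562 lower over all genes. DUSP6 and APLN, called lower with log2 fold changes of -1.81 and -1.78, lost their calls when single libraries were left out, DUSP6 for 5 and APLN for 4 of the 6. Of the 16 alternatives, the DUSP6 call held in 8 and the APLN call in 10. For both genes these included the replicate block and DESeq2.

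Of 30 genes of the hypoxia pathway that acts on VEGFA, 12 rose and 7 fell by edgeR, while VEGFA itself was not called. This was 63.3% called, against 36.2% of all genes, with a median log2 fold change of 0.12. The alpha subunits of hypoxia-inducible factors did not move together. EPAS1 rose to 689 ± 40.7 CPM in Set7KD, against 422 ± 31.0 CPM in NTC, and HIF1A to 499 ± 30.0 CPM, against 391.5 ± 19.1 CPM. HIF3A, at a much lower level, fell to 6.3 CPM in Set7KD, against 8.95 CPM in NTC as group means (log2 fold change -0.50, edgeR adjusted p 0.00494). VHL, which marks these subunits for degradation, fell to 56.2 ± 2.5 CPM in Set7KD, against 81 ± 2.01 CPM in NTC, and EGLN1, the oxygen-sensing hydroxylase, rose with a log2 fold change of 0.21, a call lost without NTC replicate 1 (adjusted p 0.0542). The targets did not move together: LDHA rose with a log2 fold change of 0.52, and ADM, the gene for adrenomedullin, fell with -0.50. Without Set7KD replicate 2 the count of lower genes in the list was 4, with 3230 lower over all genes. ARNT2, a partner subunit, fell to 4.18 ± 0.36 CPM in Set7KD, against 9.34 ± 0.79 CPM in NTC.

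Of 18 extracellular modulators of VEGF, 7 rose and 1 fell by edgeR (44.4% called, against 36.2% of all genes, median log2 fold change 0.10). THBS1, thrombospondin 1, an inhibitor of angiogenesis, rose to 4766 ± 673 CPM in Set7KD, against 2240 ± 357 CPM in NTC, a call that was lost with the replicate block (adjusted p 0.0559). SPARC, which binds VEGFA, rose to 2005 ± 80.3 CPM in Set7KD, against 1181 ± 49.4 CPM in NTC; it is a matrix gene like those of the fibroblast markers above. ADAMTS3, the protease that matures VEGFC, rose to 19.1 ± 1.03 CPM in Set7KD, against 8.11 ± 0.58 CPM in NTC. CTGF, a matricellular protein that binds VEGFA, was not called by edgeR, with a log2 fold change of -0.39 (adjusted p 0.234). It was called lower with the replicate block (adjusted p 4.53e-06), without NTC replicate 3 (adjusted p 0.0134) and without replicate 3 in both groups (adjusted p 0.000999). PCSK7, a proprotein convertase for VEGFC, had a log2 fold change of 1.42, but its exons overlap 446 bases of TAGLN on the opposite strand, and TAGLN had 551 CPM in Set7KD and 96.3 CPM in NTC as group means, so the value of PCSK7 is uncertain.

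**Figure D5:**
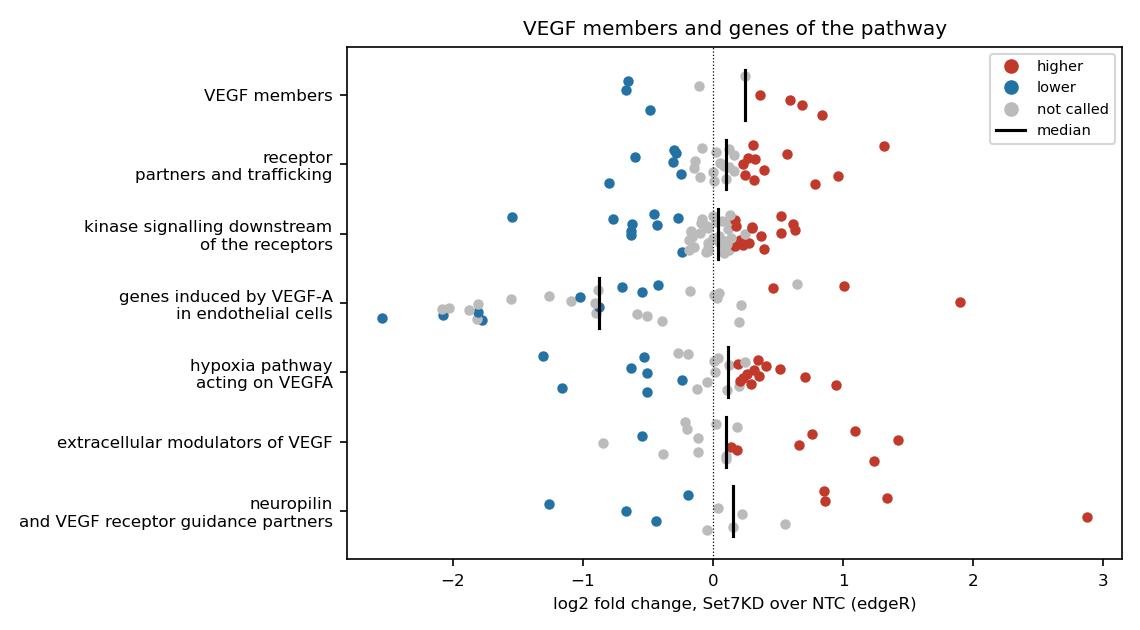
Log2 fold change, Set7KD over NTC (horizontal axis), of the 9 VEGF genes and of the tested genes of 6 pathway lists, 1 point per gene, coloured by the edgeR call, with the median of each list as a line. The medians lie between 0.04 and 0.25 except for the genes induced by VEGFA, at -0.88.

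The other angiogenic receptors of the endothelial marker list gave no common direction. TIE1 fell to 87.3 ± 3.48 CPM in Set7KD, against 144 ± 6.74 CPM in NTC, as FLT4 did. TEK, the angiopoietin receptor, rose to 58.8 ± 6.41 CPM in Set7KD, against 45.1 ± 2.08 CPM in NTC, and ENG, a TGF-beta co-receptor, to 177 ± 11.8 CPM, against 144 ± 9.5 CPM, as KDR and FLT1 did.

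The genes most like NRP1 and VEGFB across the 6 libraries were found by Pearson's r of log2 CPM among 13092 other genes that averaged 5 CPM or more, given as a description. PPIP5K2, COPB2 and SLC35D2 came first for NRP1, each with r = 0.999, and KDSR, SLC25A5 and DAZAP2 for VEGFB, each with r = 0.998. Such values were common, since the libraries fall into 2 groups: 959 genes had r over 0.95 with NRP1 and 680 with VEGFB. The log2 fold changes were 0.47, 0.37 and 0.63 for the first 3 genes and -0.70, -0.24 and -0.51 for the others.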

How the data were processed

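Poly-A RNA of 6 HMEC-1 libraries was sequenced after Dynabead selection and an Illumina mRNA-seq kit, per the labels' protocols. BWA, bedtools and the build hg19 are listed in the submitters' processing notes, without versions. The authors deposited whole-number read counts per gene without normalization. BWA does not splice reads; a final row that names no gene held 55.6 to 56.1% of the counts and was left out. The sources used here do not state how strand and multiple matches were handled. Reads of genes on opposite strands therefore cannot be told apart where their exons overlap. Beside the genes for which this is said above, it holds for 1875 of 4632 exon bases of DUSP6, 1304 of 14542 of PTPRB and 1192 of 7033 of ROBO4. Some other named genes have smaller overlaps.

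The main test was the quasi-likelihood test of edgeR 4.0.16 under R 4.3.3, with TMM scaling, the filterByExpr filter, robust estimation and group as the single factor, and Benjamini-Hochberg adjustment over 18482 genes; the fit was tested on simulated data first. SE is the absolute log2 fold change over the square root of F. The design text calls the libraries biological triplicates without saying whether transductions were separate, so the p-values cover only the spread among these 6 libraries. Libraries of a group differed by more than counting noise, with a chi-square of 2.98 to 9.85 per degree of freedom. Deviations from group means over 11151 genes correlated at 0.30, 0.42 and 0.34 between libraries of the same number, and at -0.36 to -0.038 otherwise. The deviations of a group cancel out for each gene, so positive values for the same number push the others below them. The negative values are therefore no separate evidence. This check of the data, not a label, was taken to pair the libraries, and a replicate block is an alternative, beside RLE and upper-quartile scaling, 2 other filters, DESeq2 1.42.0, limma-voom (limma 3.58.1), and libraries left out singly or by number.

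Genes and lists were chosen with earlier results of these data known. Named were the 9 genes, SETD7, up to 4 called genes of smallest p per list, genes introduced by role, and the 3 genes most like NRP1 and VEGFB. PTPRB, PTPRJ, CDH5, UNC5B, ROBO4, SEMA3F, PIK3R1, ESM1, DUSP6, APLN, EGLN1, ADM, HIF1A, HIF3A, PDPN, TAGLN, COL1A1, EGFL7, TIE1, TEK and ENG were taken after their values were seen. Exon lengths came from GENCODE 29, a later build than the counts, in which 17696 genes matched by identifier.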

Additional observations from a re-analysis of the deposited data

How the results depend on the processing

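The 9 genes kept their direction in all 144 values under the 16 alternatives, and their call in 130. Of the 14 others, 9 were losses of the PGF call, with adjusted p up to 0.22, 3 were gains of the VEGFC call (with the replicate block, without NTC replicate 3 and without replicate 3 in both groups), and KDR and FLT4 lost their calls once each. The count of higher genes among the 9 was 4 or 5 with a library left out singly and 3 to 5 with a number left out; that of lower genes was 2 or 3, and 1 without replicate 1 in both groups. Over all genes, that setting gave 1414 higher and 1562 lower, against 3250 and 3440; single libraries left out gave 2423 to 3214 higher and 2545 to 3303 lower. Without replicate 1 in both groups, counts in the pathway lists also fell, for instance to 3 lower receptor partners, 9 higher kinases, 7 higher and 2 lower hypoxia genes, 4 higher modulators and 2 lower guidance partners. Leaving out a number in both groups ended the calls of TEK, ENG, ADM, ESM1 and EGLN1 (number 1), CDH5 and ROBO4 (number 2) and PTPRJ (numbers 1 and 3). The replicate block gave 3826 higher and 4090 lower genes; among the 9 it changed the calls of PGF and VEGFC and no other. The median log2 fold change of all genes lay between -0.0096 and 0.0049 in every fit. Each scaling sets the bulk of genes near 0, so this median cannot show whether all genes shifted together. Between TMM, RLE and upper-quartile scaling, the calls of the 9 genes were the same. Direction turned for genes that were not called: with single libraries left out, SEMA3A ranged from -0.048 (without Set7KD replicate 2) to 0.11, PLCG1 from -0.064 to 0.00022 (without Set7KD replicate 2) and VWF from -0.11 (without NTC replicate 3) to 0.21. With a number left out in both groups, SEMA3A was at -0.047 without replicate 2 and VWF at -0.048 without replicate 3. FLT1, with 74 to 164 counts per library, is the member for which depth limits precision most.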
